A study of Rattus norvegicus and Mus musculus with 18 samples.

Results

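The stress keratins Krt6a, Krt6b, Krt16 and Krt17 were measured in mouse skin wounds, in wound epidermis and in wound dermis. All 4 genes were found by symbol among the 49548 genes of the mouse table, and all 4 were abundant enough to be tested. The series holds 18 libraries from mouse and rat skin, of which the 6 mouse libraries are used here: 3 of wound epidermis and 3 of wound dermis. Both mouse groups came from whole tissue of adult animals at scab detachment day 1, with no strain, sex, genotype or agent given. No unwounded mouse skin is among these libraries, so the data compare compartments of a wound and hold no measure of induction by wounding. The labels do not say if replicates were different mice, so the p-values below measure only the spread between these libraries, which may be technical.

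Keratins are the intermediate filament proteins of epithelial cells. They assemble from pairs of a type I and a type II chain. Basal keratinocytes of resting epidermis make Krt5 (type II) with Krt14 (type I), and cells that leave the basal layer switch to Krt1 (type II) with Krt10 (type I). The stress keratins are a separate set: Krt6a and Krt6b are type II chains and Krt16 and Krt17 are type I chains. Between hair follicles they are scarce in healthy skin, they are known to appear in keratinocytes at wound edges and in hyperproliferative skin disease, and they are made constitutively in parts of the hair follicle and nail. In mice Krt6a and Krt6b support the strength of migrating keratinocytes, Krt16 takes part in the control of innate immune genes and of the cell's redox balance, and Krt17 takes part in the control of cell growth and of hair cycling.

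The genes lie in the 2 keratin clusters of the mouse genome (mm10, GENCODE M21), all protein-coding and on the minus strand. Krt6b (ENSMUSG00000023041) spans chr15:101676023-101680287 and Krt6a (ENSMUSG00000058354) chr15:101689910-101694307, with 9622 bases between them, and Krt5 is the next keratin gene beyond Krt6a. Krt16 (ENSMUSG00000053797) spans chr11:100246091-100248902 and Krt17 (ENSMUSG00000035557) chr11:100256217-100261029, with 7314 bases between them, and Krt14 lies on the other side of Krt16. GENCODE also places an antisense gene, Gm49428, inside Krt6a. SMART-seq2 libraries do not mark strand, so its reads could not be told from Krt6a reads, and it was not analysed here.

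Krt6a and Krt6b are near-identical copies, which bears on every value given for either. Their coding sequences (1659 and 1662 bases) differed at 37 of 1659 aligned bases, an identity of 97.8%, and shared an unbroken identical run of 280 bases. The first coding window of 86 bases, the longer of the study's read lengths, that is the same in both genes lies in exon 1 (chr15:101694130-101694215 in Krt6a and chr15:101680105-101680190 in Krt6b, minus strand). It is shown because a read from it fits both genes equally.
Krt6a and Krt6b: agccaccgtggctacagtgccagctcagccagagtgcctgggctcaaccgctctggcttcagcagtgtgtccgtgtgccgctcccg
The 86 coding bases that tell the copies apart best lie in exon 4 (chr15:101692484-101692569 and chr15:101678303-101678388, minus strand), where capitals mark the 12 bases that differ.
Krt6a: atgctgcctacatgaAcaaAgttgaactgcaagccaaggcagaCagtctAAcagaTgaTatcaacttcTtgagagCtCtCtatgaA
Krt6b: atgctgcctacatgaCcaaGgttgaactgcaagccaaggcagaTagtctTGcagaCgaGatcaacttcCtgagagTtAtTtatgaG

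The type I members have close relatives too. Krt16 shared 86.0% of aligned coding bases with Krt14, 77.5% with Krt17, and a run of 134 identical bases with Krt14. The stretch below lies in exon 1 of Krt16 (chr11:100248635-100248720) and of Krt14 (chr11:100207200-100207285, minus strand) and is shown because a read from it cannot separate a stress keratin from the basal keratin.
Krt16 and Krt14: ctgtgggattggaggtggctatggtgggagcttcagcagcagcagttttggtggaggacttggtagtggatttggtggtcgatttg
The most alike stretch of Krt16 (chr11:100248460-100248545) and Krt17 (chr11:100260622-100260707, minus strand) also lies in exon 1, and capitals mark the 4 bases that differ.
Krt16: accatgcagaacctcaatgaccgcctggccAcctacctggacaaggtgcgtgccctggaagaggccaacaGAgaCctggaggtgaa
Krt17: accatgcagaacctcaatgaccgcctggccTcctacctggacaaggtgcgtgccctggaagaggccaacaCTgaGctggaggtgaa

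Over whole transcripts, untranslated parts included, 51.5% of the 43-base windows of Krt6a and 52.5% of those of Krt6b occurred unchanged in a transcript of another gene. With 86-base windows these shares were 38.5% and 35.0%. For Krt16 they were 42.0% and 26.9%, with Krt14 and the pseudogene Gm11597 among the matching genes, and for Krt17 they were 6.96% and 0%. With up to 2 mismatches allowed, 62.8% and 55.5% of Krt6a windows matched Krt6b, 64.1% and 56.6% of Krt6b windows matched Krt6a, 32.8% and 17.0% of Krt16 windows matched Krt14, and 22.9% and 6.68% of Krt17 windows matched Krt14. The search with mismatches covered only the members, Krt5, Krt14, Krt42 and Krt75, whereas the exact search covered all transcripts. Within these searches Krt17 shared the fewest windows by both rules. The division of reads between Krt6a and Krt6b rests largely on the authors' quantification. The read lengths of 43 and 86 bases come from the labels' protocols, which do not say which library had which.

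All 4 genes were abundant in the epidermis and lower in every dermis library. Levels are given in TPM (transcripts per 1000000, a length-corrected share of one library), so different genes can be set side by side. Krt16 stood at 3035, 4626 and 6435 TPM in wound epidermis replicates 1, 2 and 3 and at 593, 799 and 44.0 TPM in wound dermis replicates 1, 2 and 3. It was the most abundant member in each epidermis library, where it ranked 16 to 29 among all genes. Krt6b, a type II chain, measured 3018, 2642 and 5665 TPM in the epidermis libraries, against 499, 511 and 26.8 TPM in the dermis libraries. For Krt6a the epidermis values were 1380, 2154 and 3631 TPM and the dermis values 512, 470 and 39.1 TPM. For each of these 3 genes the lowest epidermis library lay 2.70 to 5.17 times above the highest dermis library, so the groups stood well apart.

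Krt17 was the least abundant member in every library. Its epidermis libraries held 284, 294 and 1575 TPM, and its dermis libraries 209, 138 and 22.6 TPM. Its groups did not overlap, but the lowest epidermis library lay only 1.36 times above the highest dermis library. Epidermis replicate 3 alone held 5.45 times the mean of the other epidermis libraries. The order by group mean in epidermis was Krt16 (4699 ± 1701 TPM), Krt6b (3775 ± 1648), Krt6a (2388 ± 1144) and Krt17 (718 ± 743; SD, n = 3 each). The ranges of neighbours in this order overlapped for Krt16 and Krt6b and for Krt6b and Krt6a; the range of Krt17 overlapped that of Krt6a only through replicate 3. In dermis the means were 479 ± 390, 346 ± 276, 340 ± 262 and 123 ± 94.3 TPM in the same order, and all of these overlapped.

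**Figure D1:**
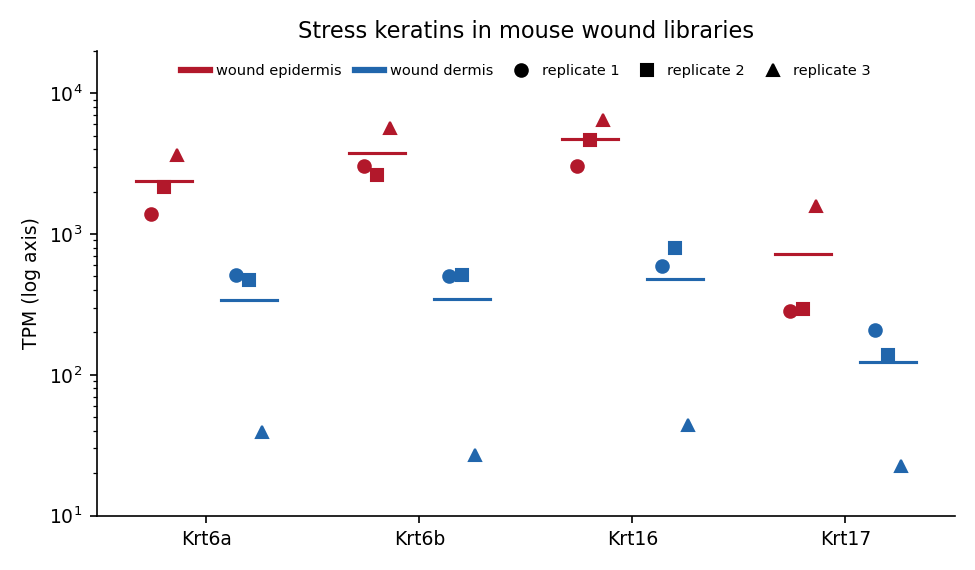
TPM of the 4 stress keratins on a log axis in each mouse library, with red for wound epidermis, blue for wound dermis, the replicate number by symbol and the group mean as a line. Every epidermis library lies above every dermis library for each gene, dermis replicate 3 is lowest throughout, and Krt17 is carried upward by epidermis replicate 3 (1575 TPM).

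The test ran on log2(TPM + 1) over the 15982 mouse genes that reached 1 TPM in 3 or more libraries, with limma and Benjamini-Hochberg adjustment over all of them. Krt6b was higher in epidermis by 4.21 ± 1.09 on the log2 scale (SE; limma adjusted p = 0.0139), Krt16 by 4.01 ± 1.03 (limma adjusted p = 0.0135) and Krt6a by 3.38 ± 0.97 (limma adjusted p = 0.021). Krt17 stood at 2.53 ± 0.96 with an adjusted p of 0.0577 and a 95% interval, not adjusted for the number of genes, of 0.26 to 4.79. So 3 of the 4 members passed at 0.05, all of them higher in epidermis. Over all genes tested 17.0% were called higher and 39.3% lower. All 4 members were higher in every epidermis library than in every dermis library, as were 20.8% of all genes tested. The median log2 fold change of the members was 3.70, against -0.42 over all genes.

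The size of these differences depended on single libraries. Without wound dermis replicate 3, the library with the least of every member, the log2 fold changes were 2.17 for Krt6a, 2.82 for Krt6b, 2.70 for Krt16 and 1.58 for Krt17, with limma adjusted p of 0.013, 0.00459, 0.00543 and 0.152. For Krt6a the adjusted p rose to 0.0571 (log2 fold change 3.39) when epidermis replicate 2 was left out and to 0.0608 (3.02) when replicate 3 was, so neither call held. Krt17 stood at 1.71 without wound epidermis replicate 3 (adjusted p = 0.149), and it passed under median-of-ratios scaling, at 3.0 (adjusted p = 0.0283). That scaling moved the median of all genes from -0.42 to -0.03 and the share of called genes that were higher from 30.2% to 47.2%, and quantile normalization moved them to 0.08 and 52.8%.

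**Figure D2:**
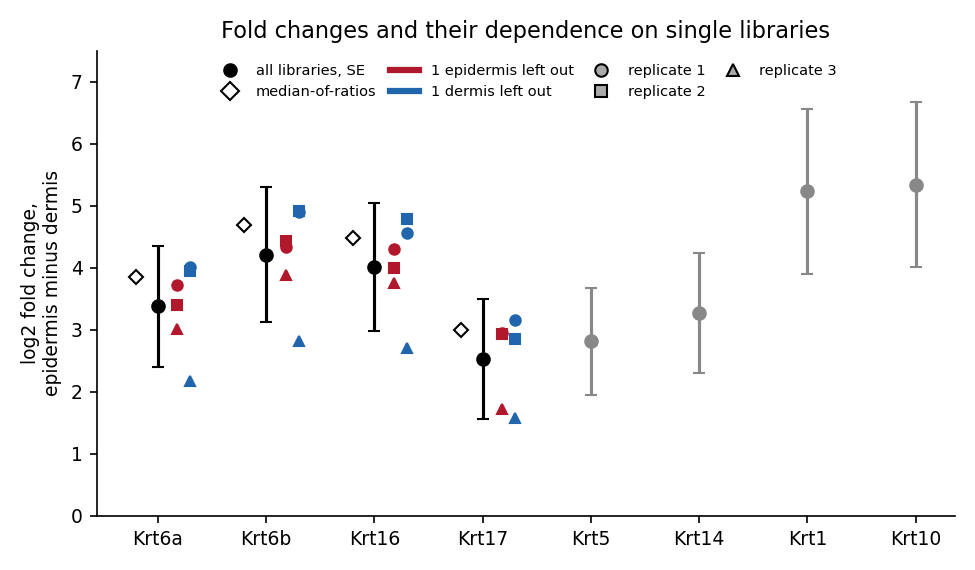
Log2 fold change of wound epidermis over wound dermis with its SE for the stress keratins (black) and for the basal keratins Krt5 and Krt14 and the suprabasal keratins Krt1 and Krt10 (grey); open diamonds give median-of-ratios scaling and coloured symbols the value with 1 library left out. Leaving out wound dermis replicate 3 gives the smallest value for each member, from 1.58 for Krt17 to 2.82 for Krt6b.

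The wound dermis libraries differed in which keratinocyte transcripts they carried. Wound dermis replicate 1 held 21.4% of the epidermis mean of Krt6a, 13.2% of Krt6b, 12.6% of Krt16 and 29.2% of Krt17. In the same library Krt5 stood at 15.0% and Krt14 at 17.2% of their epidermis means, but Krt1 stood at 1.35%, Krt10 at 0.899% and Lor (loricrin, a bulk component of the cornified cell envelope) at 0.201%. The basal keratin Krt15 was an exception, at 0.587%. In dermis replicate 2 the members stood at 19.7%, 13.5%, 17.0% and 19.2% in the same order, all below Krt5 (45.2%), Krt14 (26.4%), Krt1 (25.9%), Krt10 (23.1%) and Lor (21.5%). The members thus stood near Krt5 and Krt14 and far above Krt1 and Krt10 in replicate 1 only. Dermis replicate 3 held 0.709% to 3.15% of the members, 3.43% of Krt5, 1.87% of Krt14, 0.468% of Krt1 and 0.545% of Krt10. Krt10 was 25.8 times and Krt5 3.02 times higher in dermis replicate 2 than in replicate 1. The members differed between these libraries by factors of 0.659 (Krt17) to 1.35 (Krt16), and Krt14 by a factor of 1.54.

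**Figure D3:**
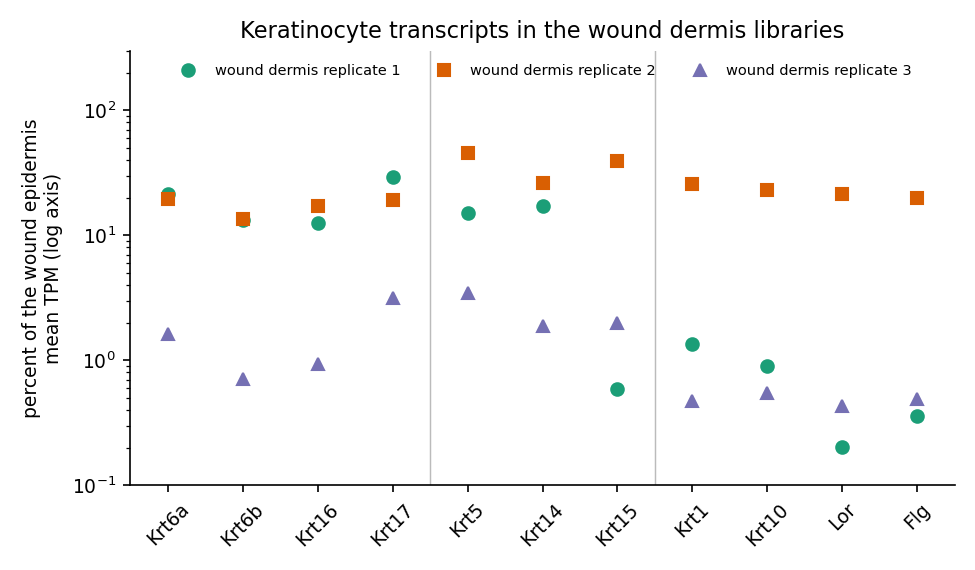
Level of each gene in the 3 wound dermis libraries as a percent of its wound epidermis mean, on a log axis, for the stress keratins (left), the basal keratins (middle) and differentiation genes (right). Replicates 1 and 2 lie close for the stress keratins, at 12.6% to 29.2%, and for Krt14, at 17.2% and 26.4%. They part for Krt5 (15.0% and 45.2%), Krt15, Krt1, Krt10, Lor and Flg.

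As background, Krt6 and Krt17 mark the outer root sheath of hair follicles, an epithelium that dips into the dermis, and Krt14 is made there too. The 7 genes of the list for outer root sheath and sebaceous gland summed to 38.0, 24.9 and 56.7 TPM in dermis replicates 1, 2 and 3 and to 7.55 to 18.5 TPM in epidermis. Sox9 (17.4, 16.2 and 39.1 TPM) and Lgr5 (18.4, 7.97 and 16.1 TPM) made up most of the dermis sums. Both of these were called lower in epidermis (limma adjusted p = 0.0406 for Sox9, which missed under both other scalings, and 9.59e-05 for Lgr5), as 2 of the 3 genes of this list that were tested. The share called lower over all genes tested was 39.3%. Lgr5 passed the filter only through the dermis libraries, so it could be tested only if higher there. Other genes of the list were near 0: Krt75 did not exceed 0.04 TPM, Lhx2 0.08 TPM and Mc5r 0.08 TPM in any dermis library, and Krt79 did not exceed 1.82 TPM. The 8 differentiation markers summed to 535, 13490 and 307 TPM in the dermis libraries and to 35780 to 84330 TPM in epidermis. The 7 basal markers summed to 1904, 3406 and 282 TPM in dermis and to 6756 to 17720 TPM in epidermis. The part of epidermal or follicular cells in the dermis values was not tested, and in whole tissue fewer cells of a type and less RNA per cell cannot be told apart. In the other direction, the 6 fibroblast markers summed to 9.67 to 100 TPM in epidermis and to 42450 to 67060 TPM in dermis. All 6 were called lower in epidermis. Lum and Pdgfra among them passed the filter only through the dermis libraries.

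The ratio of a stress keratin to the basal keratin of the same type, taken within a library, cancels the overall amount of keratinocyte RNA where both come from the same cells. Krt16 stood at 0.403, 0.833 and 0.430 times Krt14 in epidermis and at 0.369, 0.323 and 0.253 times Krt14 in dermis. Every epidermis library lay above every dermis library, and the mean log2 ratio was higher by 0.74 in epidermis (-0.93 ± 0.58 against -1.67 ± 0.27, SD, n = 3 each; exact permutation p = 0.1, two-sided). That is the smallest p that 3 against 3 libraries can give, so no ratio here could pass 0.05. Krt6b stood at 2.32, 3.13 and 2.78 times Krt5 in epidermis and at 2.39, 0.811 and 0.561 times Krt5 in dermis, where replicate 1 lay among the epidermis values (difference in mean log2 ratio 1.40, exact permutation p = 0.2). Krt6a stood at 1.06, 2.55 and 1.78 times Krt5 in epidermis and at 2.45, 0.747 and 0.818 times Krt5 in dermis, and the groups overlapped (0.56, exact permutation p = 0.4). Krt17 went the other way, at 0.0378, 0.0529 and 0.105 times Krt14 in epidermis and 0.131, 0.0558 and 0.130 times Krt14 in dermis (-0.74, exact permutation p = 0.2). With all 4 tests adjusted together none could pass. These ratios also rest on how reads shared by a stress keratin and its basal keratin were divided. With up to 2 mismatches allowed, 32.8% of 43-base and 17.0% of 86-base Krt16 windows matched Krt14.

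Type II and type I stress keratins were close to balanced in each of the 6 libraries. The sum of Krt6a and Krt6b stood at 1.33, 0.975 and 1.16 times the sum of Krt16 and Krt17 in epidermis and at 1.26, 1.05 and 0.988 times it in dermis. The ranges of both compartments overlapped although the summed level of the 4 genes ran from 132 TPM in dermis replicate 3 to 17306 TPM in epidermis replicate 3. Krt5 by contrast stood at only 0.136 to 0.173 times Krt14 in epidermis and 0.130 to 0.274 times Krt14 in dermis, so the basal pair was not balanced at the transcript level. Which chain made up each type varied more. Krt16 made up 91.4%, 94.0% and 80.3% of the type I stress keratins in epidermis and 73.9%, 85.3% and 66.1% in dermis, with Krt17 the rest. Krt6a made up 31.4%, 44.9% and 39.1% of Krt6a plus Krt6b in epidermis and 50.6%, 47.9% and 59.3% in dermis, so every dermis library had the higher Krt6a share (38.5% ± 6.8 against 52.6% ± 6.0, SD, n = 3 each; exact permutation p = 0.1, the smallest possible). This share rests on how reads shared by the 2 copies were divided. With both copies added into 1 gene before the fit, the sum was higher in epidermis by 3.84 (limma adjusted p = 0.0156).

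Among all keratin transcripts, the stress keratins were a sizeable part in both compartments. Summed over the 54 keratin genes of the table, keratins made up 54705, 71038 and 56829 TPM in epidermis and 4057, 14414 and 594 TPM in dermis. The 4 members made up 14.1%, 13.7% and 30.5% of that sum in epidermis and 44.7%, 13.3% and 22.3% in dermis, and the groups overlapped. Epidermis replicate 3 had the highest share in its group, with the most Krt14 (14970 TPM against 7525 and 5551) and the least Krt1 and Krt10. Krt1 and Krt10 together stood at 4.77, 5.58 and 1.25 times the stress keratins in epidermis replicates 1, 2 and 3. Dermis replicate 1, where the members and the basal pair each made up 44.7% of keratin transcripts and Krt1 with Krt10 only 9.90%, had the opposite make-up to dermis replicate 2 (13.3%, 21.5% and 63.0%).

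**Figure D4:**
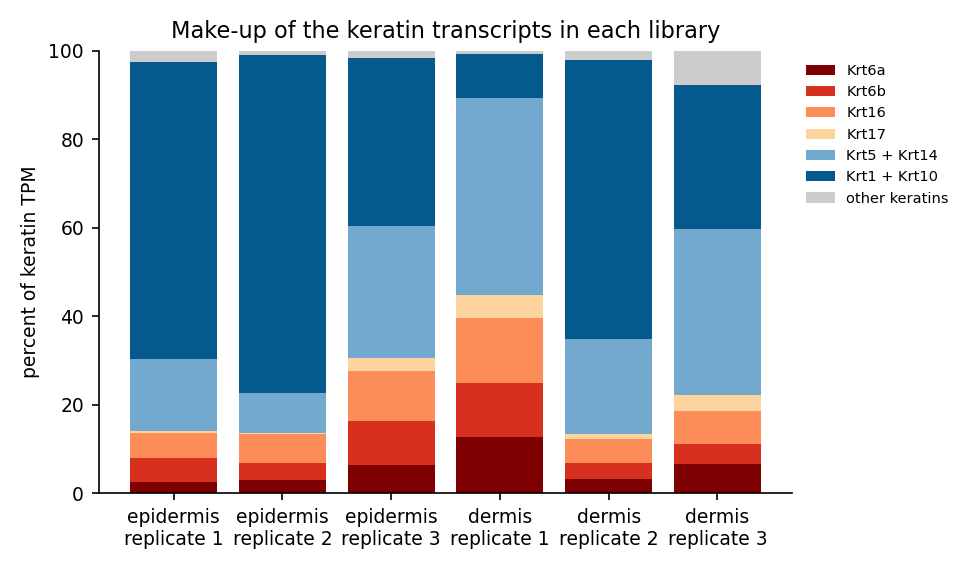
Percent of all keratin TPM taken by each stress keratin, by Krt5 with Krt14, by Krt1 with Krt10 and by the other keratins, as 1 stacked bar for each mouse library. Dermis replicate 1 and epidermis replicate 3 carry the largest shares of stress keratins in their groups (44.7% and 30.5%), and dermis replicate 2 has a make-up near that of epidermis replicate 1.

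The genes whose levels ran most like each member were found among 7998 other genes with a mean of at least 10 TPM, by Pearson's r of log2(TPM + 1) over the 6 libraries. The libraries form 2 groups, a difference between which raises r, so the r is a description only. The 3 genes most like Krt16 were Krt6a (0.995), the snoRNA gene Gm23127 (0.994) and Krt6b (0.994). Krt6b was followed by Krt16 (0.994), Krt14 (0.993) and Krt6a (0.992), and Krt6a by Krt16 (0.995), Krt6b (0.992) and AI506816 (0.988). The nearest 3 of Krt17 held no stress keratin and were Gm43558 (0.978), the lysosomal chloride transporter Clcn7 (0.967) and Gm45684 (0.966). Clcn7 itself had similar medians in both compartments, 28.3 TPM for epidermis and 26.1 TPM for dermis. Krt17 itself had an r of 0.948 with Krt6a, 0.935 with Krt6b and 0.919 with Krt16. These 3 keratins were thus among the 66 genes over 0.9 with Krt17. That number was 340 for Krt6a, 511 for Krt6b and 631 for Krt16.

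Most tested ligands of the EGF receptor were called higher in epidermis, as were most stress keratins. Signalling of this receptor is known to raise Krt6 and Krt16 transcription in keratinocytes, and a link between the levels was not tested. Of 11 listed EGF family genes, receptors included, 10 were tested, 9 were called higher and 0 lower. Their median log2 fold change was 2.34. Over all genes tested 17.0% were called higher and 39.3% lower. With 1 library left out 6 to 9 of these genes were higher, and Areg dropped below the filter whenever that library was from epidermis. The ligand Areg stood at 7.0, 17.4 and 9.86 TPM in epidermis and did not exceed 0.83 TPM in dermis (2.91 ± 0.34, limma adjusted p = 0.000452). Areg passed the filter only through the epidermis libraries, so it could be tested only if higher there. Tgfa was higher by 2.65 (adjusted p = 0.0011) and Hbegf by 2.49 (adjusted p = 0.00159), and the receptor Egfr by 0.76 (adjusted p = 0.0117; 6.21 ± 0.24 against 3.28 ± 0.45 TPM). Btc missed the threshold (0.82, adjusted p = 0.0844) and passed under both other scalings. The Epgn call (limma adjusted p = 0.0465) did not hold with a pseudocount of 0.1 (0.0728) or without the filter (0.1). It was also lost without epidermis replicate 2 or 3 and without dermis replicate 1 or 3.

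Cytokines and receptors that are known to act on stress keratin genes were mixed. Of 18 listed genes 13 were tested, and 3 were called higher and 6 lower, with a median of -0.60. The shares over all genes tested were 17.0% higher and 39.3% lower, so the mix is not read as a trait of this list. Il22ra1, the keratinocyte receptor chain for interleukin-22, stood at 1.28, 2.28 and 1.71 TPM in epidermis and at most 0.10 TPM in dermis (1.38 ± 0.19, limma adjusted p = 0.000882). It passed the filter only through the epidermis libraries, so it could be tested only if higher there. Il17rc was higher by 1.52 (adjusted p = 0.00116) and Il1a by 3.55 (adjusted p = 0.0156). The interleukin-1 receptor Il1r1 was lower by -2.41 (adjusted p = 0.000471) and Ifngr1 by -2.37 (adjusted p = 0.000505), as was the shared receptor chain Il10rb by -1.0 (adjusted p = 0.00433), which missed the threshold under median-of-ratios scaling (-0.53, adjusted p = 0.0867). Under that scaling 4 of these genes were higher and 3 lower, and under quantile normalization 5 and 4. Il17a and Il22 were listed at 0 in all 6 libraries, and Ifng did not exceed 0.24 TPM. The call of Il1a did not hold without wound epidermis replicate 2 (adjusted p = 0.0575) or without wound dermis replicate 1 or 3 (adjusted p = 0.0633 and 0.0583). Leaving that epidermis library out left 1 of 12 tested genes of the list called higher. Il22ra1 was then below the filter and not tested.

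Of 21 transcription factors known to act at stress keratin promoters 20 were tested, 9 were called higher and 3 lower, with a median of 0.73. Among all genes tested 17.0% were called higher and 39.3% lower. Cebpb averaged 613 ± 56.2 TPM (SD, n = 3) in epidermis against 124 ± 42.7 TPM (SD, n = 3) in dermis (2.34 ± 0.27, limma adjusted p = 0.000423). Klf4, a factor of the barrier programme, was higher by 2.28 (adjusted p = 0.00121) and Tfap2a by 2.59 (adjusted p = 0.00669). Nr3c1, the glucocorticoid receptor, which is known to repress stress keratin genes, was lower by -1.89 (adjusted p = 0.00215), and Rara by -1.24 (adjusted p = 0.00225; -0.48 and 0.091 under quantile normalization). Nfe2l2 (NRF2) and Stat3, also known activators, stood at -0.11 and -0.06 and did not pass (adjusted p = 0.702 and 0.888).

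Among genes that are known to appear with the stress keratins in hyperproliferative epidermis, 18 of 21 were tested, 13 were called higher and 3 lower, with a median of 2.61 (10 to 13 higher with 1 library left out). Set beside these counts, the shares over all genes tested were 17.0% higher and 39.3% lower. The antimicrobial peptide gene Defb14 stood at 12.2, 12.3 and 11.1 TPM in epidermis and at most 2.72 TPM in dermis (2.33 ± 0.28, limma adjusted p = 0.00054). The cornified envelope precursor Sprr2d was higher by 5.26 (adjusted p = 0.00117) and the protease inhibitor Slpi by 2.57 (adjusted p = 0.00126). The 3 lower genes act in migration and matrix breakdown: the urokinase receptor Plaur (-4.39, adjusted p = 3.31e-05), the fibronectin receptor chain Itga5 (-3.31, adjusted p = 6.07e-05) and the protease Mmp9 (-1.83, adjusted p = 0.00199). Macrophages and fibroblasts express these 3 genes too, and the 6 macrophage markers summed to 657 to 1136 TPM in dermis and 56.5 to 75.5 TPM in epidermis. The part of those cells in the lower values was not tested.

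All 12 listed genes for anchorage and binding of keratin filaments were tested, and 8 were called higher and 2 lower, with a median of 3.61. Of all genes tested 17.0% were called higher and 39.3% lower. The desmosomal plaque genes Evpl (3.81, limma adjusted p = 0.00326) and Pkp3 (3.70, adjusted p = 0.00437) were higher, as was Fam83h (2.36, adjusted p = 0.00491), a keratin-binding protein. Sfn, the 14-3-3 protein that is known to bind Krt17 in growing keratinocytes, stood at 3389, 2601 and 3871 TPM in epidermis and at 321, 1256 and 52.6 TPM in dermis (3.54 ± 1.01, adjusted p = 0.0207). The Sfn call did not hold without the filter (adjusted p = 0.0537), without epidermis replicate 1 (0.053) or 3 (0.0533) or without dermis replicate 1 (0.0614). Plec and Tchp were lower by -1.18 and -1.09 (adjusted p = 0.04 and 0.0372), and neither passed under median-of-ratios scaling, without the filter, or without wound dermis replicate 1 or 3. Plec also missed without wound dermis replicate 2, and Tchp under quantile normalization and without any 1 of the epidermis libraries. Of 18 other epidermal keratins 11 were tested, 9 were called higher and 0 lower, with a median of 3.50. Those with the smallest adjusted p were Krt2 (1.65, adjusted p = 0.000651), Krt80 (3.50, adjusted p = 0.0021) and Krt78 (5.37, adjusted p = 0.00463). Krt2 lay near the floor, at 1.7, 2.56 and 2.96 TPM in epidermis and at most 0.24 TPM in dermis. It passed the filter only through the epidermis libraries, so it could be tested only if higher there. Krt5 (2.81), Krt14 (3.27), Krt1 (5.23) and Krt10 (5.34) were among the 9, and the number fell to 4 without wound dermis replicate 1 and to 5 without wound epidermis replicate 1 or 3. With an epidermis library left out Krt2 was below the filter and not tested.

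**Figure D5:**
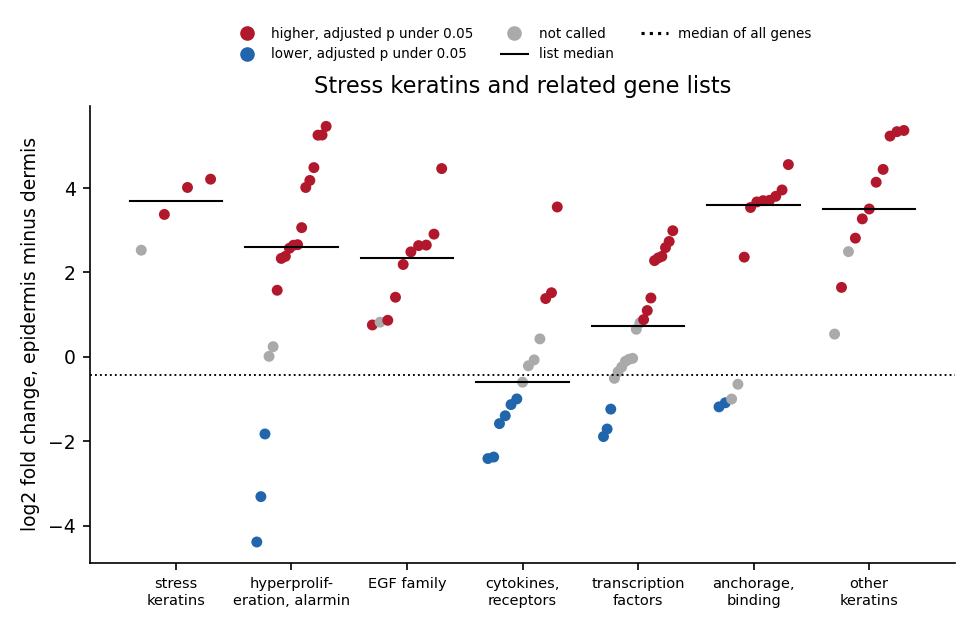
Log2 fold change of wound epidermis over wound dermis for each tested gene of the stress keratins and 6 related lists, coloured by its call, with the list median as a solid line and the median of all genes (-0.42) as a dotted line. The medians of the stress keratins (3.70), the anchorage and binding genes (3.61) and the other keratins (3.50) lie highest, and the cytokine list (-0.60) lies near the median of all genes.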

How the data were processed

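RNA of the 6 mouse libraries was copied and amplified by SMART-seq2, which reads polyadenylated transcripts in full and keeps no strand, and was sequenced as single-end reads, per the labels' protocols. The authors deposited these values as TPM. Per the submitters' processing notes, the tools were Bowtie 1.0.0 and RSEM 1.2.31 and the mouse build was mm10; no annotation or setting is given in the sources used here. TPM keep no read numbers, so depth is unknown. Between 13117 and 16257 genes reached 1 TPM in a library.

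Of 49548 genes, 49289 matched a symbol in GENCODE M21. The 15982 genes that reached 1 TPM in 3 or more libraries entered limma 3.58.1 (R 4.3.3) on the log2(TPM + 1) scale, with a mean-variance trend and Benjamini-Hochberg adjustment at 0.05, and this step was tested on simulated data. Fold changes on this scale are understated near 1 TPM. Ratios and shares were tested by exact permutation over libraries. Windows were searched in GENCODE M21 transcripts, which may differ from the authors' annotation. Alternatives were other pseudocounts, filters and scalings, no trend, a replicate block, summed Krt6 copies and each library left out; leaving libraries out with the tested genes held fixed was added after seeing the data. The rat table was not used here.

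The members and gene lists were chosen with earlier results of these data known. Named list genes are those with the smallest adjusted p, up to 3 per direction (1 such gene is not reported here), plus Krt15, Lor, Sox9, Lgr5, Egfr, Btc, Nfe2l2, Stat3, Sfn and genes at or near 0 chosen after their values were seen.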

Additional observations from a re-analysis of the deposited data

How the results depend on the processing

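The direction of each stress keratin, of the 4 ratios to Krt5 or Krt14 and of the Krt6a share was the same under the alternatives run for them; the type II to type I ratio, the Krt16 share and the share of all keratins were not recomputed. Krt6b and Krt16 passed at 0.05 in each of theirs. Krt6a missed it without the filter (3.38, limma adjusted p = 0.0539), and Krt17 passed only under median-of-ratios scaling (3.0, adjusted p = 0.0283). With 1 library left out, Krt6a stood at 2.17 to 4.01, Krt6b at 2.82 to 4.92, Krt16 at 2.70 to 4.78 and Krt17 at 1.58 to 3.15. With the tested genes held fixed, an alternative chosen after seeing the data, the adjusted p of Krt6a was again above 0.05 when epidermis replicate 2 (3.39, 0.058) or replicate 3 (3.02, 0.0622) was left out. The number of genes called was 8996, and 5288 to 8546 with 1 library left out, lowest without wound dermis replicate 3 and 5427 without replicate 1; fewer genes were then tested (13853 and 13855), and with the tested genes held fixed these counts were 7564 and 7687, and 7415 without wound epidermis replicate 1. The summed level of the 4 genes was higher in epidermis by 10292 TPM, and by 7428 to 12223 TPM with 1 library left out. The labels do not say if replicate numbers pair the mouse libraries. Deviations of same-numbered libraries correlated at -0.14, 0.09 and 0.19 across genes, and those of other pairs at -0.20 to 0.12. Deviations from a mean of 3 libraries constrain one another, so these values cannot settle pairing. With the replicate block the log2 fold changes were the same and the adjusted p was 0.0351 for Krt6a, 0.0229 for Krt6b, 0.02 for Krt16 and 0.108 for Krt17, with 8404 genes called. Under the block Plec missed the threshold (adjusted p = 0.0678) and Krt77 passed (0.0386).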

Other observations

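Krt77, a type II keratin of eccrine duct and epidermis, stood at 6.83, 5.16 and 75.1 TPM in wound epidermis replicates 1, 2 and 3 and at 0.24, 3.82 and 2.43 TPM in wound dermis (log2 fold change 2.50, limma adjusted p = 0.0652). Like Krt17 it was highest in epidermis replicate 3, but its dermis values ran in another order. The adjusted p was below 0.05 with median-of-ratios scaling (0.0334), with quantile normalization (0.0192) and without wound epidermis replicate 2 (0.0487). It was picked out after its values were seen. Krt42, the keratin gene next to Krt17, did not exceed 0.26 TPM in any library, and Krt19 did not exceed 0.15 TPM. The epithelial keratin Krt23 was higher in epidermis by 4.14 (adjusted p = 0.0139), at 181, 133 and 146 TPM against 1.86, 59.9 and 2.75 TPM. That call did not hold without wound dermis replicate 1 (adjusted p = 0.055) or 3 (0.0528).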
